A study of Homo sapiens with 15 samples.

Results

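The lysosome and autophagy genes described here are 37 named human genes, grouped by role. They are 24 lysosomal genes (3 membrane proteins, 11 cathepsins and other proteases, 7 glycosidases and sulfatases, and 3 genes of lipid handling), 10 genes of the autophagy machinery and 3 transcription factors of the MiT/TFE family. They were taken by symbol, and 34 of the 37 had a named probe set among the 17687 genes measured. GLB1, NEU1 and NPC2 were not analysed here. Expression was measured on 15 microarrays of ASC52htert, human adipose stem cells immortalised with telomerase reverse transcriptase, with 5 arrays in each of 3 groups. MSC were the undifferentiated cells, for which the sources used here give no medium or time of harvest. MA were cells placed in adipogenic medium 3 days after seeding for 14 days and then kept for 7 days in RPMI with 10% fetal bovine serum, and the labels call them mature adipocytes. DED were cells differentiated in the same way and then kept for 7 days in the same medium after it had been conditioned by the breast cancer cell line MDA-MB-231, and the labels call them dedifferentiated adipocytes. All groups are of 1 cell line and carry the same immortalising gene.

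Lysosomes are acidic organelles that break down proteins, lipids, glycans and nucleic acids delivered by endocytosis and by autophagy. Autophagy starts with the ULK1 kinase and the Beclin complex, builds a double-membraned vesicle with the ATG conjugation machinery, decorates it with proteins of the LC3 and GABARAP families, and ends in fusion with the lysosome. In fat cells, lysosomal acid lipase splits the cholesteryl esters and triglycerides that reach the lysosome, beside the cytosolic lipases of the lipid droplet. TFEB, TFE3 and MITF bind short E-box sequences that hold the core CACGTG in the promoters of many lysosomal genes.

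All values are log2 intensities, as mean ± SD over 5 arrays, and differences are moderated log2 differences with their SE from limma over all 17687 genes. A gene rose or fell where its limma p, adjusted by Benjamini-Hochberg over all genes, was under 0.05. Whether the arrays of a group stand for separate cultures is not stated, so a p-value here reflects the spread among these samples alone, and that spread may be technical. The cells are bulk samples, in which fewer cells of a type and less RNA per cell cannot be told apart.

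The labels were set against markers of cell types. All 7 adipocyte markers rose in MA over MSC and 6 of them fell in DED against MA. Of 3 mesenchymal stem cell markers 2 fell in MA, and in DED against MA 2 rose and 1 fell. In DED against MSC all 3 were lower, with a median of -0.79, and all 7 adipocyte markers were higher, with a median of 4.71. The mean of the 7 ran from 5.24 to 5.47 over the MSC arrays, from 12.08 to 12.25 over MA and from 9.97 to 11.19 over DED, with DED array 1 at 11.19 and the other DED arrays at 9.97 to 10.26. Of 11 macrophage markers, CD14 alone passed the test, from 5.51 ± 0.25 in MA to 6.91 ± 0.58 in DED, and all 11 had group means under 8.31, the 95th percentile of 612 negative control probe sets. None of 6 measured breast epithelial markers and none of 5 endothelial markers passed limma's test in any comparison, and 0 had an unadjusted limma p under 0.05. DED array 3 had the lowest value of its group in 12 of the 34 members and the highest in 7. Results of members that rest on it are given with and without it. In all groups CTSH and TFEB were dimmer than the median negative control probe set (4.80). With them MCOLN1, CTSF, CTSL, CTSS, GLA, TFE3 and MITF had all group means under 8.31, so the size of their differences depends on background, and no fold is given for them.

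The promoter sequences of members are shown because the family's E-box can be read directly in several of them. RefSeq promoter windows of 300 bases on GRCh38.p14, from 250 before to 50 after the start of transcription, were held for 30 of the 37 members. CACGTG, which reads the same on both strands, was in 8 of these 30 members (26.7%) and in 8.77% of 27305 genes, or in 8 of 41 member windows and in 7.26% of 35116 windows of all genes. Its longer form TCACGTGA, which contains CACGTG and is palindromic too, was in 4 of the 30 members (LAMP1, CTSA, GAA and MCOLN1; 13.3%) and in 1.18% of genes, or 0.98% of windows. TGATGNAAT, an ATF4 composite element searched on both strands, was in 0 of the 30 members and in 1.22% of genes, or 0.991% of windows. The windows below belong to the members that hold CACGTG and passed the test in any comparison, and to LIPA and GABARAPL1, which had the largest rises of the lysosomal and the autophagy genes. Each is written 5′ to 3′ along the gene, in lower case with CACGTG, or TCACGTGA where it is present, in capitals.
LAMP1, chr13:113296989-113297288, plus strand: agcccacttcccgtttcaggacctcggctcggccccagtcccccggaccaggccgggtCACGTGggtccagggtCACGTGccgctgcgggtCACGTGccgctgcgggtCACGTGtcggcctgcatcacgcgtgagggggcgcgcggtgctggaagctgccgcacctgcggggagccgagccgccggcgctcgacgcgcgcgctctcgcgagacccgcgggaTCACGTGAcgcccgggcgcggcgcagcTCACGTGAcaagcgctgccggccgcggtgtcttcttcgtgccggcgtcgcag
CTSA, chr20:45891085-45891384, plus strand: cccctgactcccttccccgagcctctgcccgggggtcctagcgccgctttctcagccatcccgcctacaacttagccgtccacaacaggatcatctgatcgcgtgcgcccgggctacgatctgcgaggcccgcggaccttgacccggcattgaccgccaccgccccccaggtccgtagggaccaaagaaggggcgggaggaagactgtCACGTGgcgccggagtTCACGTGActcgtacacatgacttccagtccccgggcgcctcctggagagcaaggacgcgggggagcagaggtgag
CTSD, chr11:1763878-1764177, minus strand: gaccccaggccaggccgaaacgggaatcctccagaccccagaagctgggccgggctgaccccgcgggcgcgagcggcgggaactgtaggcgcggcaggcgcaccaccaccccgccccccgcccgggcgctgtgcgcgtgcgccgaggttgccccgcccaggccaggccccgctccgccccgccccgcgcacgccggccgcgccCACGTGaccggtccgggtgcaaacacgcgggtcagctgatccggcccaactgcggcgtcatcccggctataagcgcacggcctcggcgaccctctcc
CTSF, chr11:66568557-66568856, minus strand: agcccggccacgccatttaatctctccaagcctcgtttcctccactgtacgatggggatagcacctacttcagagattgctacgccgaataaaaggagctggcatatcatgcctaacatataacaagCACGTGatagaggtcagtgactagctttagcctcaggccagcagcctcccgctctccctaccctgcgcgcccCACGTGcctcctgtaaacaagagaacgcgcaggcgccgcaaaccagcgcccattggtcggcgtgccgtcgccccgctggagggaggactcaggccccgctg
GAA, chr17:80101331-80101630, plus strand: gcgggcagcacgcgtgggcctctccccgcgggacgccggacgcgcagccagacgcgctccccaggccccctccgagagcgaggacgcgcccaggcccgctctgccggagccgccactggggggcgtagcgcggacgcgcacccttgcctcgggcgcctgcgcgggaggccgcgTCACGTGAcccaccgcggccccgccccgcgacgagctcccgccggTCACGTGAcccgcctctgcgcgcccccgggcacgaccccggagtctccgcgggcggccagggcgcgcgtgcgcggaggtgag
ARSB, chr5:78985909-78986208, minus strand: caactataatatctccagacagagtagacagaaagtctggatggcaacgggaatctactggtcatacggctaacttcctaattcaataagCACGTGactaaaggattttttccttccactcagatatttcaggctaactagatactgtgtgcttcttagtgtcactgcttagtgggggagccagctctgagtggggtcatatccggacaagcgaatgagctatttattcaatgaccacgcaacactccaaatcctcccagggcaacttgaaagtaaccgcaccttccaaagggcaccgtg
LIPA, chr10:89251726-89252025, minus strand, the most downstream of its 3 windows: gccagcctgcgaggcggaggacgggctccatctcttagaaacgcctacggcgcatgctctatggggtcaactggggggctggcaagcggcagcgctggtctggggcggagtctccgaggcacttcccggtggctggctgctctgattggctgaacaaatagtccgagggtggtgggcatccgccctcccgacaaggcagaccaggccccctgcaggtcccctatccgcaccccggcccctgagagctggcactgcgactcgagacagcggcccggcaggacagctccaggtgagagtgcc
GABARAPL1, chr12:10212627-10212926, plus strand: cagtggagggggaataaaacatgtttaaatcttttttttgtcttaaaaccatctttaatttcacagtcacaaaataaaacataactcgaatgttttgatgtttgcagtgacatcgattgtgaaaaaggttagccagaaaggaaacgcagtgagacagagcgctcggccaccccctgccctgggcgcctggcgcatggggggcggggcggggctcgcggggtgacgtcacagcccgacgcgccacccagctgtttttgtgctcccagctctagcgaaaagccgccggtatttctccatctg
The LAMP1 window held CACGTG 6 times, those of CTSA, CTSF and GAA 2 times each, and those of CTSD and ARSB 1 time each, whereas the windows of LIPA and GABARAPL1 held none. A match is a description of letters in the window. The genes that carry the motif are returned to below, since they did not move in the same direction.

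Between MSC and MA, 9 of the 34 measured members rose and 12 fell, where 33% of all genes tested passed (15.4% rose and 17.6% fell). The median member differed by -0.06, beside a median of -0.002 over all genes.  Of 21 measured lysosomal genes 4 rose and 8 fell, with a median of -0.13. Of 10 autophagy genes 4 rose and 4 fell, with a median of 0.08, and of the 3 transcription factors MITF rose.

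Between MA and DED, 6 members rose and 8 fell, where 25.9% of all genes passed (12.9% rose and 13% fell). All 8 falls were of lysosomal genes. Of 21 lysosomal genes 2 rose and 8 fell, with a median of -0.32 beside 0.02 over all genes, and of 10 autophagy genes 4 rose and none fell by limma's test, with a median of 0.21. At an unadjusted limma p under 0.05 the count of autophagy genes that fell was 0. Both steps use the same MA arrays, so a member with a high or low MA value enters both with opposite sign.

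Between MSC and DED, 6 members rose and 12 fell, where 33.4% of all genes passed (17.1% rose and 16.4% fell). The 12 falls were again of lysosomal genes, 2 others of which rose, and their median was -0.43 beside 0.03 over all genes. Of 10 autophagy genes 3 rose and none fell by limma's test, with a median of 0.11 and 0 lower at an unadjusted limma p under 0.05. The arrays of MA lay wholly above those of MSC in 7 members and wholly below in 11, where the arrays did not overlap in 27% of all genes (12.4% higher and 14.6% lower). For DED against MA these counts were 3 and 7, where 18.1% of all genes did not overlap (8.61% and 9.48%). For DED against MSC they were 4 and 11, where 25.1% did not overlap (12.4% and 12.7%).

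**Figure D1:**
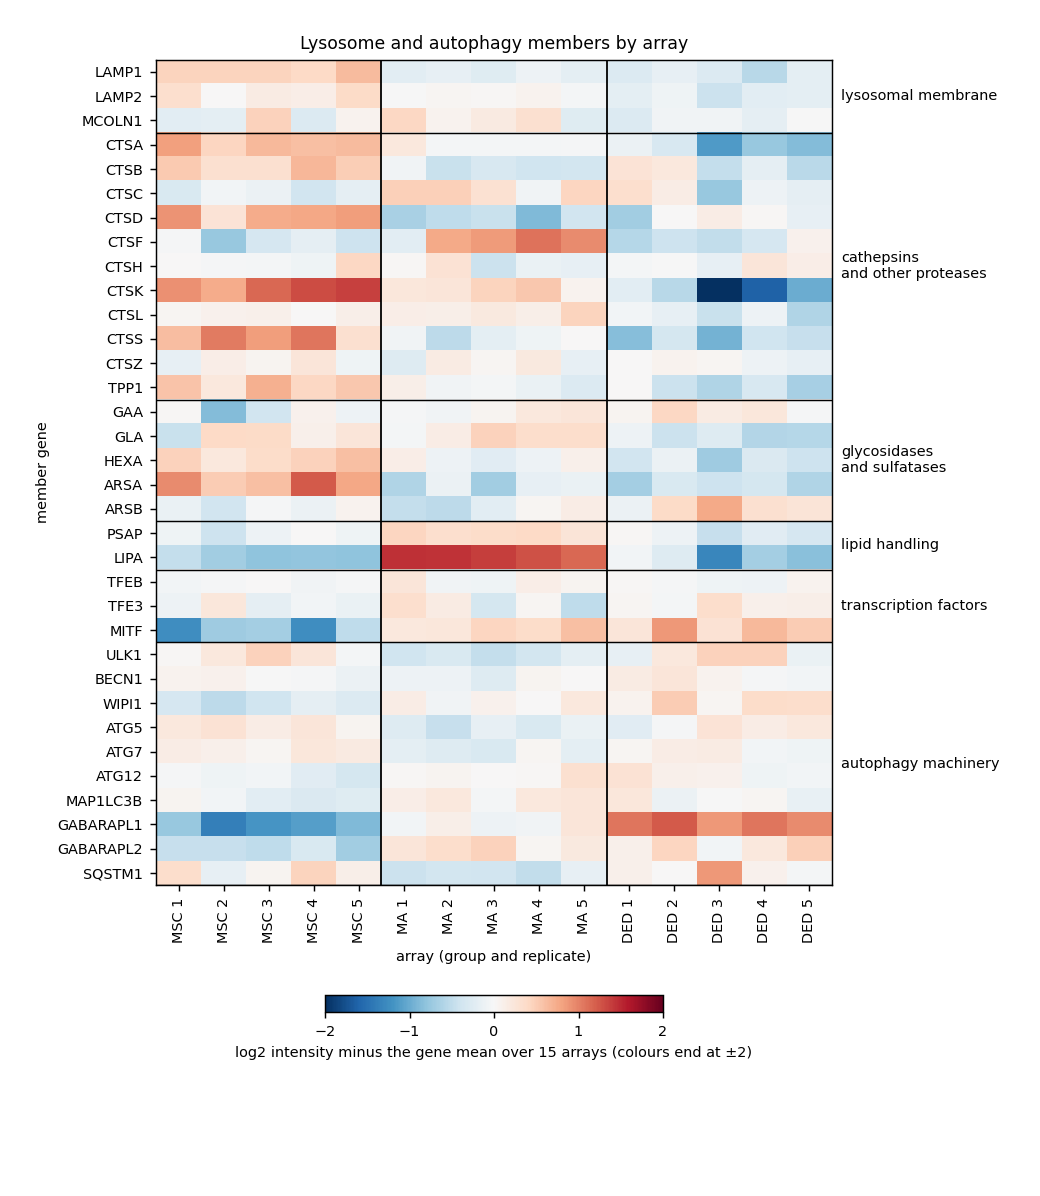
Log2 intensity of the 34 measured members on each of the 15 arrays, drawn as the difference from the mean of that gene over all arrays, with red above and blue below and colours ending at 2 on either side. Rows are grouped by role and vertical lines part the groups. LIPA is red on all 5 MA arrays, GABARAPL1 goes from blue in MSC to red in DED, and CTSK is darkest on DED array 3.

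Of the 3 lysosomal membrane proteins, LAMP1 and LAMP2 were lower in DED than in MSC. LAMP1 and LAMP2 are the heavily glycosylated proteins that line the inner face of the lysosomal membrane, and MCOLN1 is a calcium channel of that membrane. LAMP1 read 9.99, 10.00, 10.00, 9.94 and 10.18 on MSC arrays 1 to 5, 9.33, 9.38, 9.31, 9.45 and 9.36 on MA, and 9.27, 9.39, 9.28, 9.00 and 9.35 on DED. Every MSC array lay above every MA and DED array. LAMP1 fell by 0.66 (SE 0.10, limma adjusted p = 2.2e-05) in MA and was 0.76 lower in DED than in MSC (difference -0.76, SE 0.10, limma adjusted p = 2.9e-06), while MA and DED differed by -0.11, with a 95% interval from -0.31 to 0.10. LAMP2 went from 14.06 ± 0.15 in MSC to 13.87 ± 0.05 in MA and 13.63 ± 0.12 in DED, and the difference of DED from MSC of -0.43 (SE 0.10) passed the test with a limma adjusted p of 0.0023. Each of its steps alone did not pass, although all DED arrays of LAMP2 lay under all MA arrays (-0.24, limma adjusted p = 0.099). MCOLN1 did not pass in any comparison, with differences from -0.27 to 0.18.

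Of the 11 proteases, 5 fell and 2 rose in MA, 4 fell and 1 rose in DED against MA, and 7 fell and 0 rose in DED against MSC, where 0 were higher at an unadjusted limma p under 0.05. Of all genes, 17.6%, 13% and 16.4% fell and 15.4%, 12.9% and 17.1% rose in these comparisons. Their medians were -0.57, -0.43 and -0.61. Most are cathepsins, proteases of the lysosome that are mainly papain-like, while CTSD is an aspartic and CTSA a serine protease. The mean of the 11 genes ran from 9.73 to 9.91 over the MSC arrays and from 9.50 to 9.55 over MA. Over DED it was 9.33, 9.34, 8.74, 9.18 and 9.11 on arrays 1 to 5, so that DED array 3 was the lowest and all 3 groups stood apart.

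CTSK, the collagen-degrading cathepsin best known from osteoclasts, had the largest fall of the proteases. It read 13.01, 12.83, 13.24, 13.40 and 13.45 in MSC, 12.32, 12.33, 12.53, 12.63 and 12.16 in MA, and 11.88, 11.54, 8.46, 10.47 and 11.10 in DED. No array of a group overlapped another group, and the DED arrays spread over more than 3 log2 units with array 3 lowest. CTSK fell by 1.70 from MA to DED (SE 0.41, 3.26-fold lower, limma adjusted p = 0.0036) and was 5.64-fold lower in DED than in MSC (difference -2.50, limma adjusted p = 5.7e-05). Without DED array 3 the difference of DED from MA was -1.15 (SE 0.21, limma adjusted p = 4.2e-04) and that from MSC -1.94. MA was lower than MSC by 0.79 in means (difference -0.79, SE 0.41), which did not pass with all arrays (limma adjusted p = 0.16) and passed without DED array 3, whose spread enters the shared estimate (limma adjusted p = 0.0040).

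CTSA, the serine carboxypeptidase that protects beta-galactosidase and neuraminidase in the lysosome, fell at each step. It read 13.77, 13.39, 13.60, 13.55 and 13.59 in MSC, 13.16, 12.92, 12.91, 12.91 and 12.94 in MA, and 12.84, 12.64, 11.83, 12.20 and 12.09 in DED. The 3 groups did not overlap. The fall was 0.61 (SE 0.15, limma adjusted p = 0.0036) from MSC to MA and 0.65 (SE 0.15, limma adjusted p = 0.0032) from MA to DED, where the difference was -0.53 without DED array 3 (limma adjusted p = 0.0092). DED lay 2.39-fold under MSC.

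CTSD, the major aspartic protease of lysosomes, fell in MA and lay between MA and MSC in DED. It read 15.49, 14.86, 15.33, 15.37 and 15.43 in MSC, 13.94, 14.09, 14.15, 13.71 and 14.21 in MA, and 13.89, 14.60, 14.74, 14.62 and 14.43 in DED. All MSC arrays lay above all others, and DED array 1 lay among the MA arrays. CTSD was 2.42-fold lower in MA than in MSC (difference -1.28, SE 0.16, limma adjusted p = 1.7e-06) and 1.79-fold lower in DED than in MSC (limma adjusted p = 2.4e-04). Its rise of 0.44 from MA to DED (SE 0.16, limma adjusted p = 0.048) was at the threshold. The call was lost without any of MSC arrays 1, 3, 4 and 5, MA arrays 1 to 4, or DED arrays 2 to 5 (limma adjusted p from 0.052 to 0.12).

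CTSB, a cysteine cathepsin found in most cells, fell by 0.79 in MA (SE 0.15, limma adjusted p = 2.7e-04) and stayed lower in DED than in MSC (difference -0.61, limma adjusted p = 0.0031). Its means were 10.63 ± 0.15 in MSC, 9.84 ± 0.15 in MA and 10.02 ± 0.37 in DED, and the MSC arrays lay above all others. TPP1, tripeptidyl peptidase, which trims peptides from their amino end, went from 9.82 ± 0.19 to 9.25 ± 0.15 and 8.93 ± 0.27. Its fall of 0.57 in MA (SE 0.13) and its difference of -0.89 between DED and MSC passed (limma adjusted p = 0.0021 and 1.8e-05), and the DED step of -0.32 did not (limma adjusted p = 0.085). Of the arrays left out in turn, DED array 1 made it pass, at -0.43 (limma adjusted p = 0.013). CTSS, a cathepsin of antigen-presenting cells, was dim throughout, at 6.56 ± 0.31, 5.61 ± 0.21 and 5.18 ± 0.27. It fell by 0.95 in MA (SE 0.16, limma adjusted p = 6.4e-05), and its MSC arrays at 6.11 to 6.85 lay above the MA arrays at 5.27 to 5.79. The step of CTSS from MA to DED, -0.43, just missed the threshold (limma adjusted p = 0.0502) and passed without any of MSC arrays 2, 4 and 5, MA array 2, or DED arrays 2 and 4 (limma adjusted p from 0.024 to 0.0498).

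CTSC and CTSF moved the other way in MA. CTSC, dipeptidyl peptidase, which activates serine proteases of immune granules, rose from 11.03 ± 0.13 to 11.56 ± 0.23 (difference 0.52, SE 0.16, limma adjusted p = 0.018) and read 11.57, 11.38, 10.48, 11.13 and 11.06 on the DED arrays. Its difference of DED from MA was -0.43 (limma adjusted p = 0.061). It was -0.27 without DED array 3, a move of over 1.5 times, and passed without MA array 4, DED array 1 or DED array 2 (limma adjusted p from 0.015 to 0.045). CTSF, a cysteine cathepsin whose loss causes a neuronal storage disease, rose by 1.02 in MA (SE 0.20, limma adjusted p = 4.0e-04) and fell by 1.03 in DED (SE 0.20, limma adjusted p = 6.0e-04). It read 5.49, 4.76, 5.19, 5.34 and 5.11 in MSC, 5.31, 6.27, 6.37, 6.60 and 6.46 in MA, and 4.95, 5.11, 5.03, 5.19 and 5.60 in DED. MA array 1 lay among the MSC and DED arrays and the other 4 MA arrays above them all.

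CTSL, a broad cysteine cathepsin, did not pass between MSC and MA (0.13, 95% interval from -0.11 to 0.37) and fell by 0.48 in DED (SE 0.12, limma adjusted p = 0.0040). All DED arrays of CTSL, at 7.31 to 7.86, lay under those of MSC and MA. Its difference of -0.34 from MSC passed (limma adjusted p = 0.027) and was lost without MSC array 5, DED array 3 or DED array 5 (limma adjusted p from 0.053 to 0.089). CTSZ, a carboxypeptidase cathepsin, did not pass in any comparison at means of 11.35 to 11.41, and its 95% interval for DED against MSC ran from -0.30 to 0.18. CTSH was under the median of the negative controls in every group, and its values carry no order.

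The glycosidases and sulfatases remove sugars and sulfate groups from glycans and glycolipids. Of the 5 measured, 2 fell in MA, 2 fell and 1 rose in DED against MA, and 3 fell and 2 rose in DED against MSC, with medians of -0.08, -0.13 and -0.53. The shares called were 40%, 60% and 100% of these 5, beside 33%, 25.9% and 33.4% of all genes. ARSA, arylsulfatase A, which acts on the myelin lipid sulfatide, read 9.83, 9.38, 9.48, 10.11 and 9.65 in MSC, 8.28, 8.77, 8.19, 8.72 and 8.75 in MA, and 8.20, 8.57, 8.46, 8.53 and 8.28 in DED. The MSC arrays stood above all others, while MA and DED overlapped. ARSA was 2.22-fold lower in MA than in MSC (difference -1.15, SE 0.15, limma adjusted p = 3.9e-06) and 2.43-fold lower in DED (limma adjusted p = 8.2e-07), and DED against MA was -0.13 with a 95% interval from -0.45 to 0.18.

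HEXA, a subunit of beta-hexosaminidase, which degrades gangliosides, fell at each step, from 11.69 ± 0.14 to 11.24 ± 0.15 and 10.89 ± 0.21. The fall in MA was 0.46 (SE 0.12, limma adjusted p = 0.0051) and the difference of DED from MSC -0.80 (limma adjusted p = 1.8e-05). The step from MA to DED, -0.35 (limma adjusted p = 0.038), was lost without any of MA arrays 1, 2 and 5 or DED arrays 1, 3 and 5 (differences from -0.36 to -0.27, limma adjusted p from 0.052 to 0.11). GLA, alpha-galactosidase, which is deficient in Fabry disease, was dim and fell in DED alone of the steps, by 0.65 from MA (SE 0.15, limma adjusted p = 0.0033). Its DED arrays, at 6.22 to 6.71, lay under all MA arrays, at 6.77 to 7.27, and MSC array 1 at 6.36 lay among the DED arrays. GLA was also lower in DED than in MSC (difference -0.53, limma adjusted p = 0.011).

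ARSB and GAA were higher in DED than in MSC. ARSB, which removes sulfate from dermatan and chondroitin sulfate, averaged 10.78 ± 0.17 in MSC, 10.69 ± 0.30 in MA and 11.22 ± 0.31 in DED. Its rise of 0.52 over MA (SE 0.16, limma adjusted p = 0.018) was lost without MA array 1, MA array 2 or DED array 3 (0.41 to 0.45, limma adjusted p from 0.054 to 0.057). Its difference of 0.44 from MSC (limma adjusted p = 0.038) was lost without any of MSC arrays 1, 2 and 4 or DED arrays 2 to 5 (limma adjusted p from 0.054 to 0.11). GAA, the acid alpha-glucosidase that degrades glycogen, averaged 10.58 ± 0.39 in MSC, 10.91 ± 0.14 in MA and 11.00 ± 0.17 in DED. Its difference of 0.41 between DED and MSC (SE 0.15, limma adjusted p = 0.043) was lost without any of MSC arrays 2 and 3, MA array 3 or DED arrays 2 to 4, and was 0.26 without MSC array 2 (limma adjusted p from 0.050 to 0.14), a move of over 1.5 times.

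Both measured lipid-handling genes were highest in MA, rising from MSC and falling in DED. LIPA encodes lysosomal acid lipase, and PSAP encodes prosaposin, the precursor of the saposins that present glycolipids to their hydrolases. LIPA read 11.08, 10.85, 10.75, 10.77 and 10.75 in MSC, 13.02, 12.99, 12.93, 12.83 and 12.70 in MA, and 11.50, 11.29, 10.24, 10.87 and 10.71 in DED. Every MA array lay over every other array by more than 1 log2 unit, and the DED arrays spread on both sides of MSC with array 1 highest and array 3 lowest. LIPA rose 4.15-fold in MA (difference 2.05, SE 0.17, limma adjusted p = 8.6e-09) and was 3.92-fold lower in DED than in MA (difference -1.97, SE 0.17, limma adjusted p = 3.6e-08). Without DED array 3 the last difference was -1.80 (limma adjusted p = 1.7e-08). DED against MSC was 0.08 with all arrays (95% interval from -0.28 to 0.45) and 0.25 without DED array 3, and passed in neither case (limma adjusted p = 0.78 and 0.21).

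PSAP read 15.64, 15.31, 15.63, 15.74 and 15.64 in MSC, 16.16, 16.07, 16.10, 16.13 and 15.99 in MA, and 15.75, 15.63, 15.27, 15.51 and 15.40 in DED. The MA arrays lay above all others, and MSC and DED overlapped. The rise in MA was 0.50 (SE 0.11, limma adjusted p = 0.0014) and the fall in DED 0.58 (SE 0.11, limma adjusted p = 5.1e-04). The adipocyte marker mean was highest in MA and lower in DED as well, and its part in the course of LIPA, PSAP and CTSF was not tested.

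The 3 transcription factors were dim. TFEB, the best-known activator of lysosomal genes, read 3.17 to 3.51 on the 15 arrays, all under the negative control median. TFE3 was at 7.97 ± 0.16, 7.95 ± 0.35 and 8.13 ± 0.15 and did not pass in any comparison. MITF, the family member known from melanocytes and osteoclasts, read 5.09, 5.63, 5.66, 5.09 and 5.83 in MSC, 6.55, 6.57, 6.76, 6.71 and 6.94 in MA, and 6.58, 7.20, 6.62, 6.98 and 6.84 in DED. All MSC arrays lay under all others, and MA and DED overlapped. MITF rose by 1.25 in MA (SE 0.16, limma adjusted p = 2.2e-06) and was 1.38 higher in DED than in MSC (limma adjusted p = 4.8e-07), with 0.14 between DED and MA (95% interval from -0.19 to 0.47). Of the members with CACGTG in the promoter, LAMP1, CTSA and CTSD fell in MA, and ARSB, GAA and MCOLN1 did not pass. CTSF alone rose, with all group means under 8.31 and MA array 1 among the MSC arrays. Whether MITF acts on any of these genes was not tested.

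**Figure D2:**
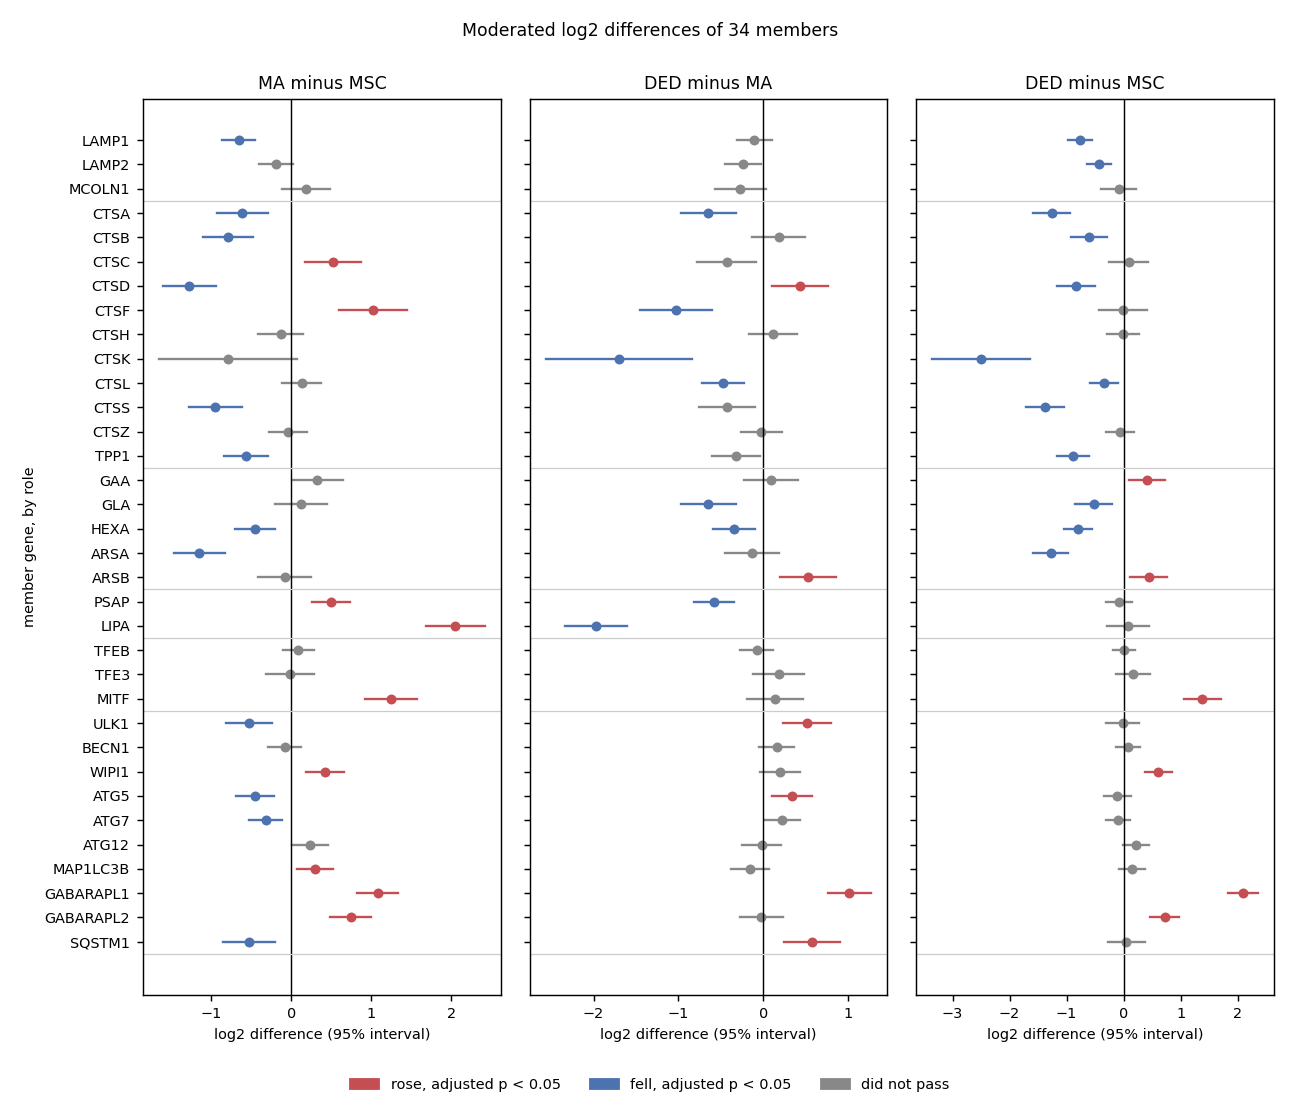
Moderated log2 differences of the 34 members with 95% intervals, by role from top to bottom, in 3 panels with MA minus MSC, DED minus MA and DED minus MSC. Red marks genes that rose and blue genes that fell at an adjusted p under 0.05, grey the rest. LIPA changes sides between the left and the middle panel (2.05 and -1.97), and GABARAPL1 is to the right of 0 in each.

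ULK1, the kinase that starts autophagy, read 8.70, 8.89, 9.14, 8.91 and 8.63 in MSC, 8.28, 8.36, 8.19, 8.31 and 8.47 in MA, and 8.51, 8.88, 9.13, 9.13 and 8.54 in DED. All MA arrays lay under all MSC and DED arrays, which overlapped. ULK1 fell by 0.53 in MA (SE 0.14, limma adjusted p = 0.0045) and rose by 0.52 in DED (SE 0.14, limma adjusted p = 0.0076), and DED differed from MSC by -0.02 with a 95% interval from -0.30 to 0.27. BECN1, the scaffold of the lipid kinase complex, did not pass in any comparison (differences from -0.08 to 0.16). WIPI1, which binds the phospholipid that this kinase makes, went from 11.34 ± 0.13 to 11.76 ± 0.11 and 11.95 ± 0.20, with all MSC arrays under all others. Its rise in MA of 0.42 (SE 0.11, limma adjusted p = 0.0062) and its difference of 0.61 between DED and MSC (limma adjusted p = 2.0e-04) passed, whereas DED against MA did not (0.19, limma adjusted p = 0.25). Without DED arrays 1 and 3 that last difference was 0.33 and passed (limma adjusted p = 0.041).

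ATG5, ATG7 and ATG12 act in the conjugation system that attaches lipid to LC3 and GABARAP proteins, with ATG7 as the activating enzyme. ATG5 averaged 10.00 ± 0.09 in MSC, 9.54 ± 0.13 in MA and 9.88 ± 0.20 in DED. It fell by 0.45 in MA (SE 0.11, limma adjusted p = 0.0032), with no overlap of arrays. Its rise of 0.34 in DED (limma adjusted p = 0.029) was lost without any of MA arrays 2 and 4 or DED arrays 3, 4 and 5 (0.29 to 0.33, limma adjusted p from 0.052 to 0.084). ATG7 fell by 0.32 in MA (SE 0.10, limma adjusted p = 0.016), from 13.82 ± 0.07 to 13.50 ± 0.13, and was 13.72 ± 0.11 in DED. Its step of 0.22 to DED did not pass (limma adjusted p = 0.11). Of the arrays left out in turn, MA array 4 made it pass, at 0.28 (limma adjusted p = 0.047). ATG12 did not pass, although its MA arrays (11.38 to 11.70) lay above all MSC arrays (11.03 to 11.35), with a difference of 0.23 (limma adjusted p = 0.11).

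GABARAPL1 and GABARAPL2, members of the GABARAP branch, were higher in MA and DED than in MSC. GABARAP itself, which is no member and was named after its values were seen, averaged 13.07 ± 0.06, 13.55 ± 0.04 and 13.00 ± 0.39 in MSC, MA and DED (SD, n = 5 each). It rose by 0.48 in MA (SE 0.14, limma adjusted p = 0.013) and fell by 0.55 in DED against MA (SE 0.14, limma adjusted p = 0.0064), and DED against MSC was -0.07 and did not pass (limma adjusted p = 0.76). GABARAPL1 was the only member that rose in each of the 3 comparisons. It read 11.56, 10.95, 11.13, 11.22 and 11.43 in MSC, 12.26, 12.43, 12.21, 12.24 and 12.56 in MA, and 13.38, 13.54, 13.19, 13.39 and 13.27 in DED. The groups lay in 3 separate ranges, with DED highest and MSC lowest. GABARAPL1 rose 2.12-fold in MA (difference 1.08, SE 0.12, limma adjusted p = 5.5e-07) and a further 2.02-fold in DED (difference 1.01, SE 0.12, limma adjusted p = 2.4e-06), to 4.28 times the MSC level (difference 2.10, limma adjusted p = 2.6e-11). The gene has a close copy, GABARAPL3, and the sources used here do not say whether its probes bind both transcripts. GABARAPL2, another member of the same branch, rose by 0.74 in MA (SE 0.12, limma adjusted p = 5.6e-05), from 10.15 ± 0.14 to 10.89 ± 0.16, with no overlap. It was 10.87 ± 0.22 in DED (difference from MA -0.03, 95% interval from -0.28 to 0.23).

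MAP1LC3B, the LC3 protein most used to follow autophagosomes, averaged 10.83 ± 0.14 in MSC, 11.13 ± 0.12 in MA and 10.97 ± 0.15 in DED. Its rise of 0.30 in MA (SE 0.11, limma adjusted p = 0.037) was lost without any of MSC arrays 3, 4 and 5 or MA arrays 1, 2, 4 and 5 (0.27 to 0.30, limma adjusted p from 0.057 to 0.092). SQSTM1, or p62, the receptor that binds ubiquitinated cargo and LC3 and is itself degraded by autophagy, was, like ULK1, lowest in MA. It read 10.22, 9.70, 9.92, 10.31 and 9.98 in MSC, 9.43, 9.50, 9.49, 9.37 and 9.71 in MA, and 9.97, 9.88, 10.73, 9.96 and 9.83 in DED. All DED arrays lay above all MA arrays, DED array 3 by far the most, and MSC array 2 touched the MA range. SQSTM1 fell by 0.53 in MA (SE 0.16, limma adjusted p = 0.013) and rose by 0.57 in DED (SE 0.16, limma adjusted p = 0.0094), or 0.41 without DED array 3 (limma adjusted p = 0.020). DED and MSC differed by 0.05, with a 95% interval from -0.28 to 0.38. These are transcript levels, and the rate at which autophagy ran was not measured.

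**Figure D3:**
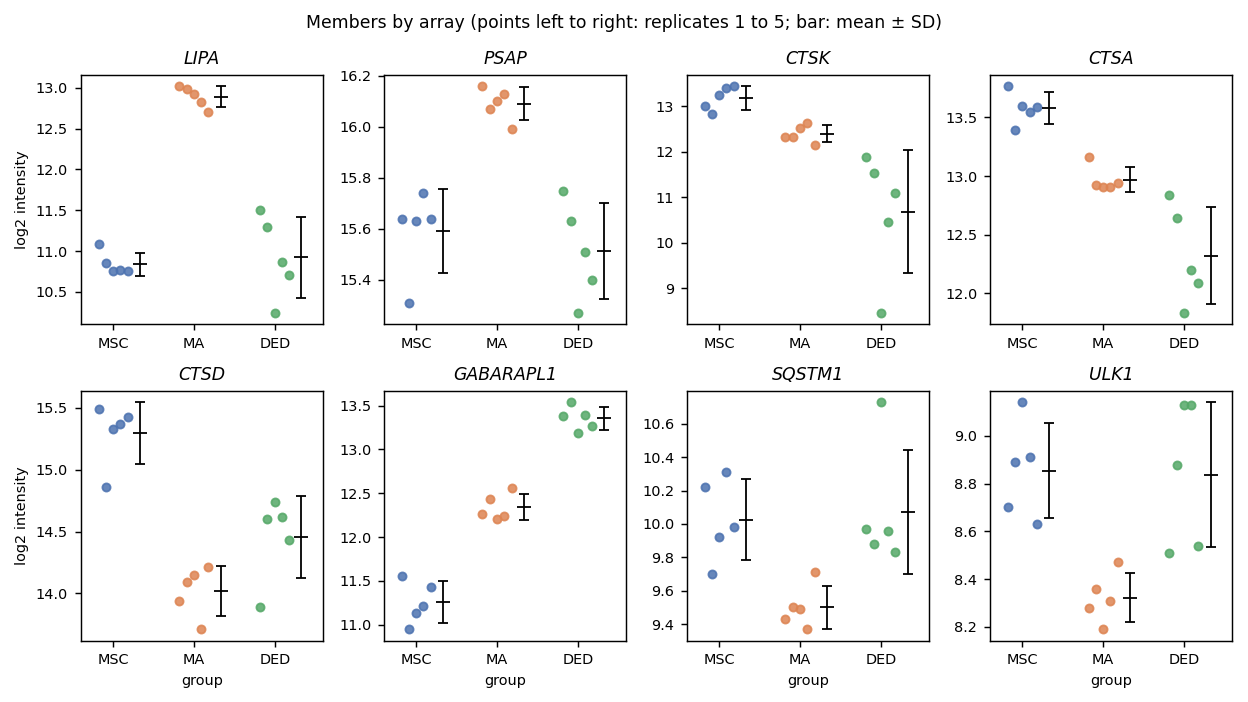
Log2 intensity by array of LIPA, PSAP, CTSK, CTSA, CTSD, GABARAPL1, SQSTM1 and ULK1 in MSC, MA and DED, 1 panel per gene with its own axis, which does not start at 0. Points are arrays 1 to 5 from left to right, and bars are mean ± SD. LIPA and PSAP peak in MA, ULK1 and SQSTM1 are lowest there, and CTSK at 8.46 and SQSTM1 at 10.73 are the values of DED array 3.

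By their course over both steps, 3 members rose in MA and fell in DED (LIPA, PSAP and CTSF), 4 fell and then rose (CTSD, ULK1, ATG5 and SQSTM1), 2 fell and fell again (CTSA and HEXA) and GABARAPL1 rose and rose again. Of these, the DED against MA calls of CTSD, HEXA and ATG5 were lost in 15, 9 and 6 of the 24 alternatives given in the closing sections. A further 6 fell in MA with no call in DED, 5 rose in MA with no call in DED, and 9 had no call in either step. CTSK, CTSL and GLA had a call, a fall, in DED against MA alone, and ARSB had a call, a rise, there alone. CTSK was already lower in MA, where all its arrays lay under all MSC arrays. That difference of -0.79 had no call with all arrays and passed without DED array 3 (limma adjusted p = 0.0040). Both steps share the MA arrays, and the share of all genes on each course was not counted. These counts therefore describe the members alone, and no overlap was tested.

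Outside the members, 109 measured genes in 7 lists of lysosomal and autophagy function were read on the same fit. Of those given with values below, MAP1LC3A averaged under 8.31 in all 3 groups. SLC17A5 and DEPTOR did so in MSC, SESN2 in MA, and GUSB and CD68 in DED. SLC38A9, named in the closing section, averaged under 8.31 in all 3 groups too. The negative controls reach that level too, so these differences are measured partly within the range of background. Among 22 other lysosomal hydrolases 3 rose and 5 fell in MA, none rose by limma's test and 7 fell in DED against MA, and 2 rose and 9 fell in DED against MSC, with medians of -0.08, -0.24 and -0.22. The shares called were 36.4%, 31.8% and 50%, beside 33%, 25.9% and 33.4% of all genes. At an unadjusted limma p under 0.05 1 of them was higher in DED against MA. LGMN, legumain, an asparaginyl protease that processes cathepsins, had the largest fall. It went from 13.70 ± 0.18 in MSC to 11.62 ± 0.09 in MA and 11.32 ± 0.24 in DED (MA minus MSC -2.08, SE 0.12, limma adjusted p = 3.6e-11), with no overlap between MSC and the others. GUSB, beta-glucuronidase, fell by 0.88 in DED against MA (SE 0.13, limma adjusted p = 2.5e-05), and GALNS, a keratan sulfate sulfatase, was 1.47 lower in DED than in MSC (difference -1.47, limma adjusted p = 2.5e-07). MAN2B1, lysosomal alpha-mannosidase, rose by 1.09 in MA (SE 0.12, limma adjusted p = 5.5e-07).

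The proton pump subunits, which acidify the lysosome, moved both ways. Of 16 measured, 4 rose and 3 fell in MA, 2 rose and 1 fell in DED against MA, and 4 rose and 3 fell in DED against MSC, with medians of 0.02, -0.04 and -0.003. The shares called were 43.8%, 18.8% and 43.8%, beside 33%, 25.9% and 33.4% of all genes. The 3 called in DED against MA became 5 with each array shifted to 1 median or with an intensity trend, and 6 with dim genes left out. ATP6V1B2, a subunit of the catalytic head, rose by 0.71 in DED against MA (SE 0.11, limma adjusted p = 6.3e-05) and ATP6V1F by 0.71 in MA (SE 0.12, limma adjusted p = 1.1e-04). ATP6V0A2, a subunit of the membrane part, fell by 0.88 in MA (SE 0.16, limma adjusted p = 1.9e-04), and ATP6AP2, an accessory subunit, fell by 0.38 (SE 0.10, limma adjusted p = 0.0052). Of 14 other membrane proteins 4 rose and 3 fell in MA, 2 rose and 4 fell in DED against MA, and 2 rose and 3 fell in DED against MSC. That is 50%, 42.9% and 35.7% called, beside 33%, 25.9% and 33.4% of all genes. SLC17A5, the sialic acid exporter of lysosomes, rose from 8.22 ± 0.10 to 9.72 ± 0.19 in MA and was 8.58 ± 0.37 in DED (differences 1.49 and -1.14, limma adjusted p = 9.2e-08 and 6.4e-06). CD68, a lysosomal glycoprotein also used as a macrophage marker, went the same way (0.82 and -1.18). NPC1, which exports cholesterol from the lysosome, rose by 0.78 in DED against MA (SE 0.18, limma adjusted p = 0.0025). Its DED array 3 read 10.55 and its other DED arrays 9.37 to 9.96.

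The receptors that carry new hydrolases to the lysosome were highest in DED. Of 5 genes of mannose 6-phosphate sorting, IGF2R and M6PR, the receptors themselves, rose in DED against MA, and 0 fell by limma's test or were lower at an unadjusted limma p under 0.05. The share called was 40%, beside 25.9% of all genes, of which 12.9% rose. IGF2R read 10.15, 10.00, 10.13, 10.32 and 9.89 in MA and 10.47, 10.89, 11.76, 11.01 and 10.90 in DED. The groups did not overlap, and DED array 3 was the highest. IGF2R rose by 0.91 (SE 0.17, limma adjusted p = 4.5e-04), and M6PR by 0.46 (SE 0.10, limma adjusted p = 1.0e-03), from 9.76 ± 0.13 to 10.22 ± 0.06. The cystatins, which inhibit cysteine cathepsins, moved in opposite directions in DED. CST3, the secreted cystatin C, averaged 13.60 ± 0.21 in MSC, 15.33 ± 0.05 in MA and 13.68 ± 0.09 in DED (differences 1.73 and -1.65, limma adjusted p = 8.2e-11 and 4.5e-10). CSTB fell by 0.79 and CSTA rose by 1.14 in DED against MA (limma adjusted p = 4.0e-06 and 1.1e-05), the latter to 12.80 ± 0.18.

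Of 29 other autophagy genes 11 rose and 3 fell in MA, 3 rose and 6 fell in DED against MA, and 8 rose and 3 fell in DED against MSC. The shares called were 48.3%, 31% and 37.9%, beside 33%, 25.9% and 33.4% of all genes. The last count of 11 called genes was 7 without MSC array 1, MSC array 2 or DED array 3. CALCOCO2, the cargo receptor NDP52, rose by 1.31 in MA (SE 0.12, limma adjusted p = 1.5e-08) and was 1.46 higher in DED than in MSC. MAP1LC3A, a relative of MAP1LC3B, rose by 1.15 in MA and fell by 0.61 in DED, and ATG101, a partner of ULK1, fell by 1.12 in MA (limma adjusted p = 4.1e-06, 0.0049 and 4.6e-05). The kinase complex mTORC1 senses nutrients at the lysosome and restrains ULK1. Of 19 genes of mTORC1 and its lysosomal control, 5 rose and 2 fell in MA, and 2 rose and 4 fell in DED against MA. In DED against MSC 3 rose and 1 fell. That is 36.8%, 31.6% and 21.1%, beside 33%, 25.9% and 33.4% of all genes. The count of 7 in MA was 4 without MSC array 1. SESN2, a leucine sensor and inhibitor of mTORC1, averaged 9.26 ± 0.17 in MSC, 7.71 ± 0.11 in MA and 9.92 ± 0.56 in DED (differences -1.55 and 2.21, limma adjusted p = 1.7e-06 and 2.5e-08). DEPTOR, an inhibitory subunit of mTOR complexes, rose by 2.49 in MA (SE 0.23, limma adjusted p = 3.7e-08), from 7.25 ± 0.29 to 9.74 ± 0.46.

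**Figure D4:**
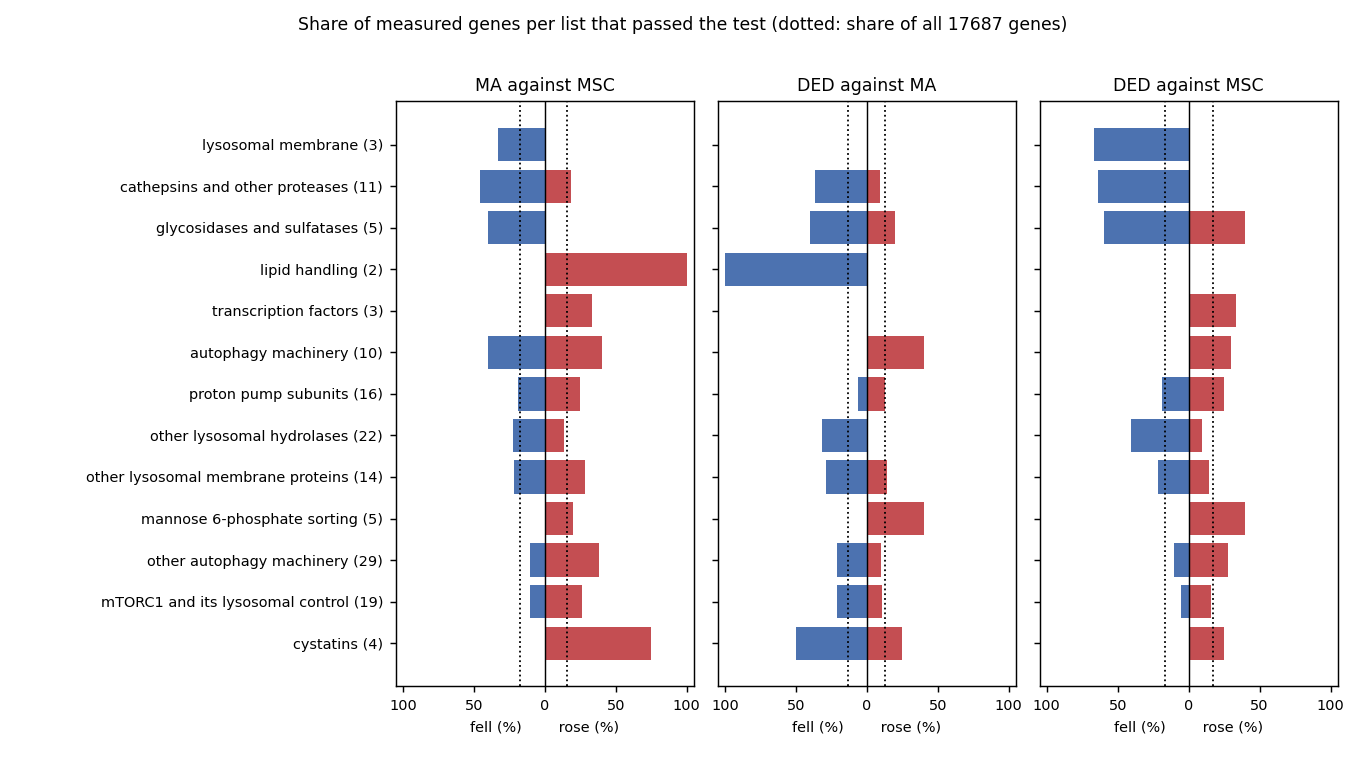
Share of measured genes in each of 6 member lists and 7 other pathway lists that rose (red, to the right) or fell (blue, to the left) at an adjusted p under 0.05, with the number measured in brackets. Dotted lines mark the share of all 17687 genes. The cathepsins and the other lysosomal hydrolases extend to the left in DED against MSC, where 7 of 11 and 9 of 22 fell.

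**Figure D5:**
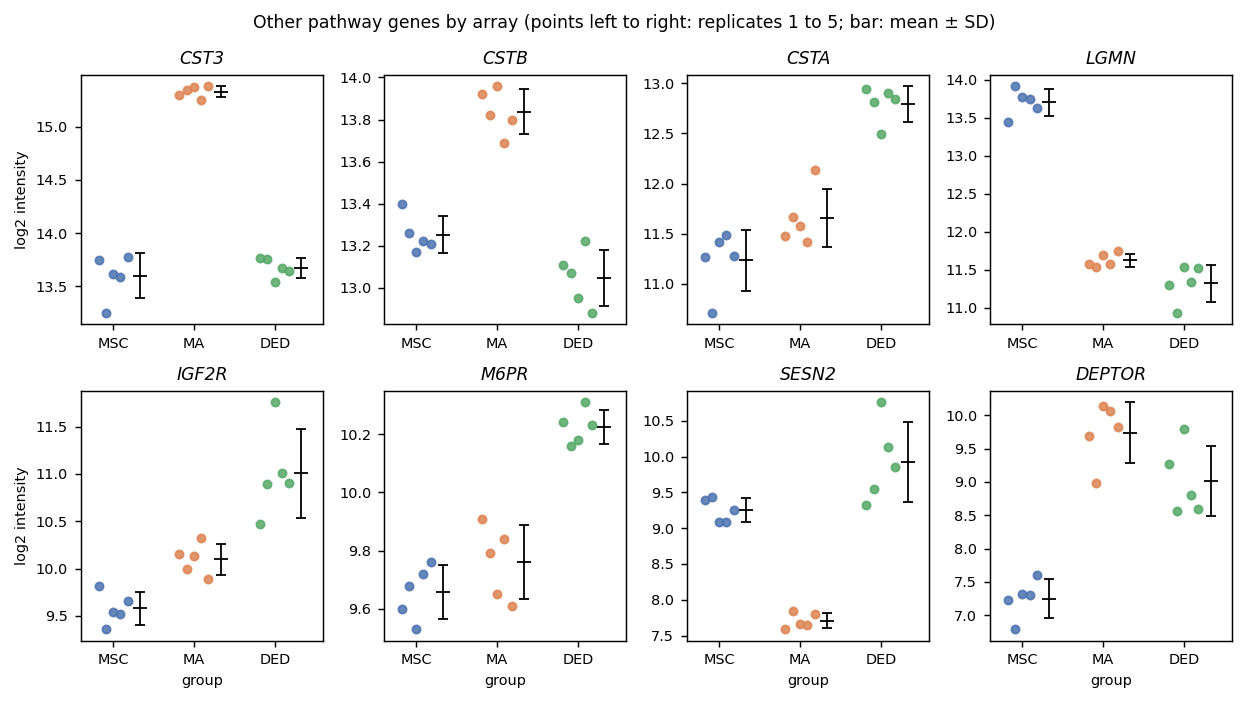
Log2 intensity by array of CST3, CSTB, CSTA, LGMN, IGF2R, M6PR, SESN2 and DEPTOR in MSC, MA and DED, with points for arrays 1 to 5 from left to right and bars for mean ± SD. Each panel has its own axis, which does not start at 0. CST3 peaks in MA at 15.33, LGMN drops from 13.70 after MSC, and SESN2 is lowest in MA at 7.71.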

How the data were processed

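Total RNA of ASC52htert cells was hybridised to 15 microarrays, 5 in each of 3 groups taken from the sample labels. The authors deposited 1 table of log2 intensities, which the submitters' processing notes credit to RMA and Transcriptome Analysis Console. The sources used here give no versions, RMA variant or genome build. Because RMA scales the arrays to each other, a change common to every gene is removed. Of 24351 probe sets 17709 carried 1 gene symbol in the platform annotation, and keeping the probe set with the highest mean for each of 20 genes with several left 17687 genes. No dim probe sets were removed. Each member had 1 probe set, and levels of different genes were not compared.

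The test was limma's moderated one (version 3.58.1, R 4.3.3), fitted to all 15 arrays at the same time with a mean for each group and no covariates, two-sided, with Benjamini-Hochberg adjustment over 17687 genes and a threshold of 0.05. The fit was tested on simulated data. With 5 arrays a group, their number sets the precision, and the depth of arrays is their signal over the 612 negative control probe sets. The members, pathway lists and markers were chosen with earlier results of these data known. All members are named. Of each other list and comparison the rule took up to 2 rises and 2 falls, the largest that passed with groups of arrays not overlapping, of which fewer are named. The alternatives were quantile normalization, each array shifted to 1 median, genes with a mean under the 25th percentile left out, every probe set tested, a robust fit with an intensity trend, weights for arrays, a fit of 2 groups at a time, a replicate block, each array left out, and DED arrays 1 and 3 left out together. For the other pathway lists they were added after seeing the data. Promoters and start sites are RefSeq's on GRCh38.p14. Python 3.11.15 with matplotlib 3.10.9 drew the figures.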

Additional observations from a re-analysis of the deposited data

Results flagged for a closer look

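In 9 of 102 groups of 5 arrays (34 members in 3 groups), the highest or lowest array was set off from the other 4 by more than 0.71 of the group's range, Dixon's 95% critical value, where chance gives about 1 in 20.

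In MSC, LAMP1 read 10.18 on array 5 against 9.94 to 10.00 on the others, and CTSH read 4.03 on the same array against 3.53 to 3.63, under the median of the negative controls. MSC array 2 was low for CTSD, at 14.86 against 15.33 to 15.49, and for PSAP, at 15.31 against 15.63 to 15.74.

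In MA, array 1 was high for CTSA, at 13.16 against 12.91 to 12.94, and low for CTSF, at 5.31 against 6.27 to 6.60. MA array 5 was high for CTSL, at 8.36 against 8.02 to 8.10, and for ATG12, at 11.70 against 11.38 to 11.44.

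In DED, SQSTM1 read 10.73 on array 3 against 9.83 to 9.97, and its rise over MA was 0.57 with that array and 0.41 without it. CTSK read 8.46 on the same array and did not cross the critical value.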

How the results depend on the processing

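Counts of called lysosomal and autophagy members stayed within 1.5 times under the 24 alternatives. Lysosomal genes called were 12 (12 to 13) for MA against MSC, 10 (7 to 12) for DED against MA and 14 (11 to 14) for DED against MSC. Autophagy genes called were 8 (7 to 8), 4 (3 to 5) and 3 (3 to 3). Of 102 member comparisons 87 kept their side of the threshold in all alternatives, 8 calls were lost by at least 1, 7 were gained, and 0 reversed. Beside arrays left out, CTSD, HEXA and ATG5 in DED against MA and GAA in DED against MSC lost their call with only the groups compared, and CTSL and GAA in DED against MSC, MAP1LC3B in MA and CTSD in DED against MA under a replicate block. CTSD in DED against MA also lost it with each array shifted to 1 median, and GAA in DED against MSC without DED arrays 1 and 3. HEXA in DED against MA also lost it with array weights and without DED arrays 1 and 3. Over its 3 such settings the limma adjusted p of HEXA ran from 0.064 to 0.20. LAMP2 and ATG7 in DED against MA passed with an intensity trend (limma adjusted p = 0.034 and 0.043). In that comparison CTSC also passed so, with quantile normalization, dim genes left out or array weights (limma adjusted p 0.030 to 0.049). CTSS passed with quantile normalization, arrays shifted to 1 median, dim genes left out or only the groups compared (limma adjusted p 0.040 to 0.045). TPP1 passed with array weights or without DED arrays 1 and 3 (limma adjusted p 0.038 to 0.044). CTSK in MA passed with array weights, only the groups compared or without DED arrays 1 and 3 (limma adjusted p 2.8e-04 to 0.049). Of 61 comparisons of named pathway genes 57 kept their call, and the others were of IGF2R, RPTOR, MLST8 and SLC38A9. Deviations from the group means were hardly correlated between same-numbered arrays of different groups (15 pairs, correlations from -0.11 to 0.087). Whether the numbers pair cultures is not stated. Under a replicate block the counts were 12, 9 and 12 for lysosomal and 7, 4 and 3 for autophagy genes. Leaving out DED arrays 1 and 3 together gave 13, 10 and 13, and 8, 5 and 3. No scaling moved the median of all genes by over 0.1. Members under the negative controls' 95th percentile are limited by signal over background.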
